A study of Mus musculus with 9 samples.

Results

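The genes described here are 10 members of a signalling axis between photoreceptors and Müller glia, namely the signals Lif, Edn2 and Fgf2, the receptors Ednrb, Osmr and Il6st, the transcription factors Stat3 and Cebpd, the feedback inhibitor Socs3 and the glial filament gene Gfap. They were chosen by name with earlier results of these data known, and all 10 were found among the 15228 genes of the expression table. The libraries came from cells sorted as retinal ganglion cells (RGCs) from WT mice, in 3 groups of 3 libraries. Nerve surgery was at 6 to 8 weeks of age, and no age is stated for the Ctrl mice. Ctrl cells came from normal intact retinas. ONC cells came from retinas taken 3 d after optic nerve crush (ONC), an injury to the axons of RGCs, with PBS as the vehicle. TPEN cells came from retinas taken at the same time after the same crush, where the eye had received 3 μL of 100 μM TPEN, a membrane-permeable chelator of zinc. PBS and TPEN were injected into the eye, and no injection is stated for Ctrl. Crush and injection therefore cannot be told apart in the comparisons with Ctrl. The sort was set to keep cells positive for CD90.2 and negative for 3 other surface markers, which include leukocyte antigens. Separate mice for the libraries of 1 group are stated neither in the labels nor in the methods, so each p-value measures the spread between these libraries, which may be technical.

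Leukaemia inhibitory factor (LIF) is made in the retina after photoreceptor stress and acts on Müller cells, the radial glia that span the retina, through a receptor that shares the signal transducer gp130, the product of Il6st. Injured photoreceptors also release endothelin 2 (EDN2), which acts on endothelin receptor B (EDNRB) of Müller cells. FGF2 is a survival factor for photoreceptors. Within the receiving cell, gp130 leads to phosphorylation of STAT3, which turns on SOCS3, an inhibitor that closes the loop, and the glial filament gene Gfap, the usual marker of reactive Müller glia. Oncostatin M receptor (OSMR) is a partner of gp130 for another cytokine of the same family, and C/EBPδ is a transcription factor induced by these cytokines.

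The promoters of the axis are shown first, because STAT3 is both a member and a regulator of other members. The start regions of 9 of the 10 genes were found in the RefSeq promoter table for GRCm38.p6, covering 250 bases before to 50 bases after each start. Both strands were searched for the STAT motif TTCNNNGAA and the AP-1 motif TGANTCA, each of which is its own reverse complement. The motifs do not overlap each other in the windows printed here. The STAT motif was present in 2 of the 9 promoters, those of Gfap and Socs3, and in 8.3% of all 32851 promoters of the table. The AP-1 motif was also present in 2 of the 9, those of Lif and Osmr, and in 7.81% of all promoters. The Osmr match spans bases 4 to 10, after the start, and its window overlaps an exon of Osmr and is not printed. A match is a description of letters, and its absence from a window says nothing of the factor. In the Gfap promoter (chr11:102897181-102897280, minus strand) the match spans bases -2 to 7 around the start, and the last 20 bases of the window lie in an exon of Gfap. In the Socs3 promoter (chr11:117969466-117969565, minus strand) the match spans bases -154 to -146, and in the Lif promoter (chr11:4257318-4257417, plus strand) bases -228 to -222. Neither of these windows overlaps an exon of a listed gene. Each window is printed 5′ to 3′ along the gene, with the motif in capitals.
Gfap: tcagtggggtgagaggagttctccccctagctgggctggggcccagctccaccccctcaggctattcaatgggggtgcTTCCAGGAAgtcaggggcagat
Socs3: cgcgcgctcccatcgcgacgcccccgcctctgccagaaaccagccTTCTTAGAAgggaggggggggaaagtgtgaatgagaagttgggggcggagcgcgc
Lif: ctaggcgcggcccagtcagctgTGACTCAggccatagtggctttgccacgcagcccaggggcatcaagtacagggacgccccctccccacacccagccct

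The libraries held between 19946993 and 23109754 reads. Levels are given as RPKM, reads scaled to exon length and library size, which allows genes of different length to be compared. The cell type label was checked against marker genes. The 8 rod markers summed to between 16764 and 19877 RPKM per library, while the RGC markers Rbpms and Pou4f1 averaged 0.605 and 0.571 RPKM in Ctrl and ranked 13010 and 13113 of the 15228 genes. Of 9 RGC markers, 7 were listed, and Nefl, a neurofilament gene, averaged 258 RPKM in Ctrl. The other listed ones, Nefm, Sncg, Thy1 and Slc17a6, averaged 49.5, 19.9, 4.74 and 0.268 RPKM in Ctrl. All 12 Müller glia markers were listed, with a sum of 591 to 604 RPKM in Ctrl. The libraries therefore held RNA of photoreceptors and Müller glia. In such bulk libraries fewer cells of a type and less RNA per cell cannot be told apart.

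All 10 genes of the axis were upregulated after ONC. Edn2 rose the most, to 9.91 times its Ctrl mean, followed by Gfap at 7.98 times and Fgf2 at 5.54 times. Il6st rose the least, to 2.33 times. With TPEN, Edn2 and Gfap were downregulated against ONC, Il6st and Stat3 stayed within a few percent of their ONC levels, and the levels of Lif and Osmr were above those of every ONC library without passing the test. All 10 genes remained above Ctrl in the TPEN group. Each difference was tested with limma on log2(RPKM + 0.1) over all 9 libraries, with Benjamini-Hochberg adjustment over all genes tested, and a gene was called a differentially expressed gene (DEG) at an adjusted p under 0.05 and a change of at least 1.5-fold. Genes under a mean of 0.5 RPKM were left out of that fit, which tested 13566 genes. Lif and Ednrb lay under this limit and were taken from the same fit over all 15228 genes. Osmr passed it only through the ONC and TPEN libraries, since its Ctrl level was 0.145 RPKM. With a pseudocount of 1 RPKM, Osmr (0.53), Lif (0.17) and Ednrb (0.23) were each under 1.5-fold on the log2 scale in ONC/Ctrl.

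In ONC/Ctrl, 8 of the 8 members tested were DEGs with higher expression, where 4.58% of all genes tested were. In the fit without a limit on low values, 10 of 10 were, against 6.19% of all genes. For all 10 the ONC libraries lay above every Ctrl library, which held for 20.7% of genes tested. The median log2 fold change was 1.98 for the 8 members and 0.02 for all genes tested. In TPEN/ONC, 2 of 8 members were DEGs with lower expression, Edn2 and Gfap, against a background of 1.21%. None was called higher by limma, against a background of 0.818%. At an unadjusted p under 0.05 that fit gave 0 members higher and 4 lower, and a voom fit on read numbers gave 1 higher and 5 lower, with 0 called higher. The median log2 fold change in TPEN/ONC was -0.41 for the 8 members and -0.01 for all genes tested. In TPEN/Ctrl, 8 of 8 members tested were DEGs with higher expression, against a background of 3.45%, with a median log2 fold change of 1.87, and none was called lower by limma, also at an unadjusted p and by voom, where the background was 0.457%. For all 10 the TPEN libraries lay above every Ctrl library, which held for 18.1% of genes tested. The comparisons ONC/Ctrl and TPEN/Ctrl share the Ctrl libraries, and ONC/Ctrl and TPEN/ONC share the ONC libraries, so that they are not independent.

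**Figure D1:**
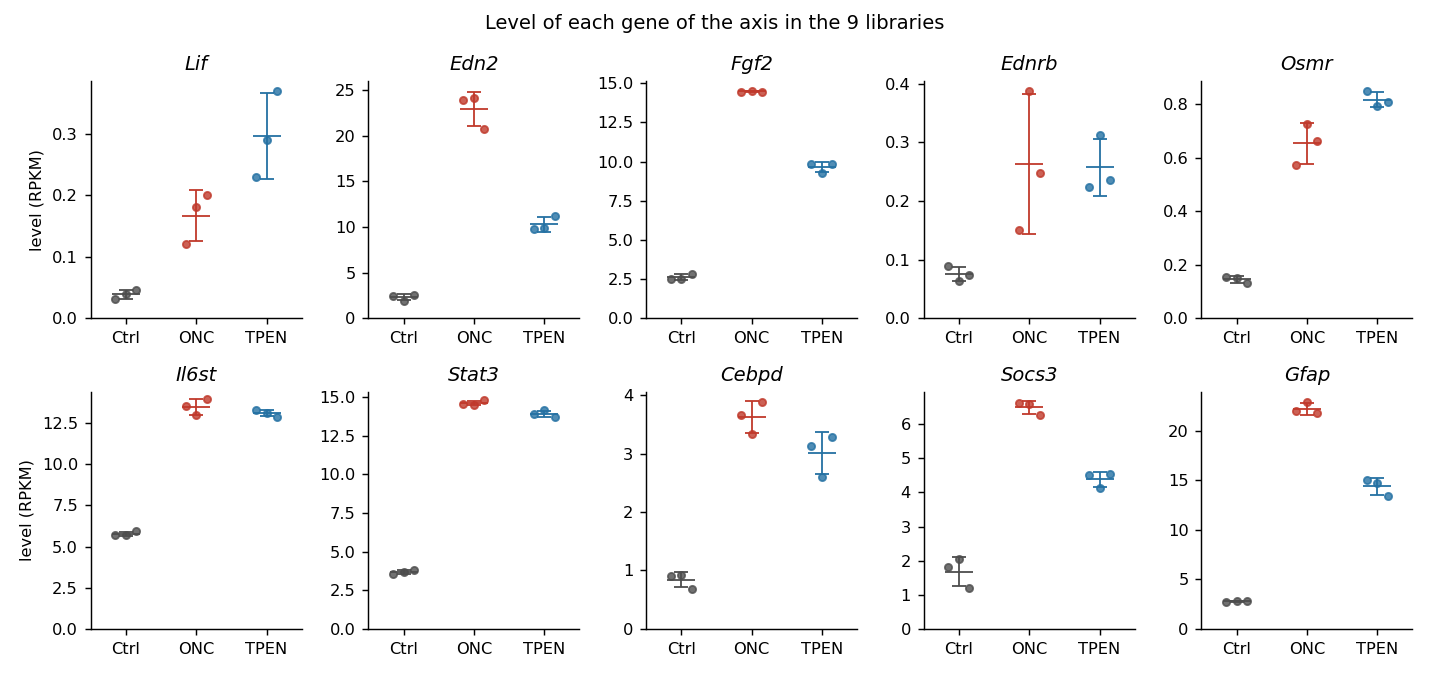
Level in RPKM (y axis, from 0, scaled for each gene) of the 10 genes of the axis in each library of Ctrl, ONC and TPEN (x axis), with points for libraries, a long bar for the mean and whiskers for 1 SD over 3 libraries. In every panel the Ctrl libraries lie below all others, and the TPEN libraries of Edn2, Fgf2, Socs3 and Gfap lie between those of Ctrl and ONC, with means of 10.3, 9.66, 4.39 and 14.4 RPKM.

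Of the 3 signals, Lif was highest in TPEN and Edn2 and Fgf2 were highest in ONC. Lif, the cytokine gene, lies on chromosome 11 from 4257557 to 4272514 on the plus strand of GRCm38. It was listed at 0.0308, 0.0398 and 0.0458 RPKM in Ctrl, at 0.120, 0.180 and 0.200 RPKM in ONC and at 0.230, 0.290 and 0.369 RPKM in TPEN. The 3 groups did not overlap, with Ctrl lowest and TPEN highest. These levels rested on few reads, with 11 reads over the 3 Ctrl libraries, 50 over ONC and 80 over TPEN. The ratio of pooled reads, scaled to the library totals, was 4.33 for ONC/Ctrl, with an exact 95% interval of 2.22 to 9.22, and 1.77 for TPEN/ONC, with an interval of 1.23 to 2.58. Both intervals cover counting error only. On the log2(RPKM + 0.1) scale, which understates the change of a gene this low, Lif rose by 0.93 ± 0.19 (SE) in ONC/Ctrl (limma adjusted p = 0.00645). In TPEN/ONC its log2 difference of 0.57 ± 0.19 did not pass the test (limma adjusted p = 0.107), and in TPEN/Ctrl it was 1.50 ± 0.19 (limma adjusted p = 6.18e-04). With quantile normalization the ONC/Ctrl difference was 0.39 and was no longer called (limma adjusted p = 0.199).

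Edn2, the endothelin gene on chromosome 4 (120161206 to 120167360, plus strand), showed the opposite order of ONC and TPEN. Its levels were 2.47, 1.89 and 2.59 RPKM in Ctrl, 23.9, 24.2 and 20.8 RPKM in ONC and 9.82, 9.85 and 11.2 RPKM in TPEN. All 3 ONC libraries were well above the TPEN libraries, and no groups overlapped. By mean level Edn2 moved from rank 9578 of 15228 genes in Ctrl to 2096 in ONC and 4216 in TPEN. The log2 fold change was 3.26 ± 0.11 (SE) in ONC/Ctrl (limma adjusted p = 6.01e-08) and -1.15 ± 0.11 in TPEN/ONC (limma adjusted p = 4.17e-04), so that the mean in TPEN was 0.449 times that in ONC. The fold change in TPEN/Ctrl was still 2.11 on the log2 scale (limma adjusted p = 2.81e-06). Tested against a change of 1.5-fold rather than 0, the fall in TPEN/ONC missed the threshold (limma treat adjusted p = 0.0936).

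Fgf2, the growth factor gene on chromosome 3 (37348346 to 37410108, plus strand), was the most even member within ONC. It was at 2.49, 2.53 and 2.82 RPKM in Ctrl, at 14.4, 14.5 and 14.5 RPKM in ONC and at 9.82, 9.28 and 9.88 RPKM in TPEN. The ONC libraries differed from each other by a coefficient of variation of 0.418%, and all were above the TPEN libraries. This spread is under the counting error of a mean of 2256 reads, so it is not read as a trait of the gene. Fgf2 rose by 2.43 ± 0.06 (SE) on the log2 scale in ONC/Ctrl (limma adjusted p = 6.09e-09). In TPEN/ONC its log2 difference was -0.58 ± 0.06 (limma adjusted p = 4.76e-04), which is just short of 1.5-fold, so that it was not called. Without TPEN replicate 1 or 3 it was -0.59 or -0.60 and was called. Fgf2 overlaps 2 other listed genes. Nudt6, on the other strand, shares 640 bases or 9.44% of the exons of Fgf2 and moved with it, by 2.30 in ONC/Ctrl and -0.53 in TPEN/ONC on the log2 scale. Gm43439, on the same strand, shares 255 bases and differed by 1.83 and -0.45. The counting is not stated to have used strand, so reads in the shared bases cannot be assigned to 1 gene.

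The receptors rose after ONC, and none of them was called in TPEN/ONC. Ednrb, the endothelin receptor gene on chromosome 14 (103814625 to 103844173, minus strand), was at 0.0884, 0.0643 and 0.0740 RPKM in Ctrl, at 0.151, 0.388 and 0.248 RPKM in ONC and at 0.223, 0.312 and 0.236 RPKM in TPEN. The ONC libraries spanned a range that held all 3 TPEN libraries, while Ctrl lay below both. Ednrb had only 20 reads over the Ctrl libraries, 73 over ONC and 65 over TPEN. The pooled read ratio was 3.47 in ONC/Ctrl (95% interval 2.10 to 6.02) and 0.987 in TPEN/ONC (0.696 to 1.40). Its log2 fold change in ONC/Ctrl was 0.99 ± 0.24 (SE, limma adjusted p = 0.0149), and without Ctrl replicate 2 this call was lost (limma adjusted p = 0.0507), as it was with quantile normalization (0.56, limma adjusted p = 0.148). In TPEN/Ctrl the value was 1.02 ± 0.24 (limma adjusted p = 0.0190), and it lost its call without Ctrl replicate 2 or 3 or TPEN replicate 2, at limma adjusted p-values of 0.0613, 0.0524 and 0.0680, and with quantile normalization (0.63, limma adjusted p = 0.134). In TPEN/ONC it was 0.02 ± 0.24 (limma adjusted p = 0.972), so the gene of the ligand EDN2 fell while that of this receptor was within the range of ONC.

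Osmr, the oncostatin M receptor gene on chromosome 15 (6813577 to 6874969, minus strand), was the only tested member whose level was higher in TPEN than in ONC. It was at 0.155, 0.150 and 0.132 RPKM in Ctrl, at 0.575, 0.726 and 0.661 RPKM in ONC and at 0.851, 0.795 and 0.807 RPKM in TPEN. The 3 groups did not overlap, an order shared with Lif. Osmr rose by 1.62 ± 0.15 (SE) on the log2 scale in ONC/Ctrl (limma adjusted p = 5.25e-05), and its difference of 0.29 ± 0.15 in TPEN/ONC did not pass the test (limma adjusted p = 0.297). A higher level in every TPEN library than in every ONC library was seen for 12.5% of all genes tested. Osm, the gene of its ligand, was not among the listed genes.

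Il6st, the gene of the shared transducer gp130 on chromosome 13 (112464070 to 112510086, plus strand), had the highest Ctrl level of the axis. Its levels were 5.71, 5.71 and 5.92 RPKM in Ctrl, 13.5, 13.0 and 14.0 RPKM in ONC and 13.3, 13.1 and 12.9 RPKM in TPEN. The ONC and TPEN libraries overlapped, and both were more than 2 times as high as Ctrl. The log2 fold change was 1.21 ± 0.04 (SE) in ONC/Ctrl (limma adjusted p = 9.65e-08). In TPEN/ONC it was -0.04 ± 0.04 (limma adjusted p = 0.640), and the 95% interval of the fold ran from 0.906 to 1.04.

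Stat3, the transcription factor gene on chromosome 11 (100885098 to 100939540, minus strand), behaved like Il6st but rose further. It was at 3.53, 3.66 and 3.81 RPKM in Ctrl, at 14.6, 14.5 and 14.8 RPKM in ONC and at 13.9, 14.1 and 13.7 RPKM in TPEN. The TPEN libraries were all just below the ONC libraries, an arrangement found for 15.6% of genes tested. Stat3 rose by 1.97 ± 0.05 (SE) on the log2 scale in ONC/Ctrl (limma adjusted p = 4.94e-09), to 3.99 times its Ctrl mean. In TPEN/ONC the log2 difference was -0.07 ± 0.05 (limma adjusted p = 0.404), with a 95% interval of the fold from 0.887 to 1.02. A fall of Stat3 RNA as large as that of Edn2, Fgf2 or Gfap lies outside this interval. These are RNA levels, and phosphorylation of STAT3 was not measured in these libraries.

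Cebpd, the C/EBPδ gene on chromosome 16 (15887286 to 15891031, plus strand), was at 0.905, 0.924 and 0.691 RPKM in Ctrl, at 3.66, 3.34 and 3.88 RPKM in ONC and at 3.13, 2.61 and 3.29 RPKM in TPEN. All TPEN libraries were below all ONC libraries, by a small margin. The log2 fold change was 1.99 ± 0.13 (SE) in ONC/Ctrl (limma adjusted p = 5.48e-06) and -0.27 ± 0.13 in TPEN/ONC (limma adjusted p = 0.278). Cebpd shares 559 bases, 14.9% of its exons, with Spidr on the other strand. Spidr averaged 221 reads in Ctrl and 433 in ONC, against 69.3 and 312 for Cebpd, and differed by 0.89 on the log2 scale in ONC/Ctrl and by -0.33 in TPEN/ONC.

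Socs3, the feedback inhibitor gene on chromosome 11 (117966079 to 117970047, minus strand), was at 1.81, 2.04 and 1.21 RPKM in Ctrl, at 6.62, 6.58 and 6.28 RPKM in ONC and at 4.50, 4.14 and 4.54 RPKM in TPEN. The groups did not overlap, and TPEN lay between the other two. Its promoter is 1 of the 2 with a STAT motif shown above. Socs3 rose by 1.92 ± 0.15 (SE) on the log2 scale in ONC/Ctrl (limma adjusted p = 2.07e-05). In TPEN/ONC its log2 difference of -0.55 ± 0.15 missed the threshold (limma adjusted p = 0.0628). Ctrl had the widest spread of Socs3, and the fit of TPEN/ONC borrows this spread. With only the 6 libraries compared, the limma adjusted p was 0.00376, and without Ctrl replicate 3 it was 0.00330. The change was under 1.5-fold in every setting run, at most -0.58, so that Socs3 was never a DEG in TPEN/ONC. The mean in TPEN was 0.677 times that in ONC, close to the ratio of 0.667 for Fgf2.

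Gfap, the glial filament gene on chromosome 11 (102887336 to 102900912, minus strand), carries the other STAT motif. It was at 2.73, 2.83 and 2.80 RPKM in Ctrl, at 22.0, 22.9 and 21.8 RPKM in ONC and at 15.1, 14.8 and 13.4 RPKM in TPEN. All ONC libraries were above all TPEN libraries, and these were far above Ctrl. Gfap rose by 2.95 ± 0.05 (SE) on the log2 scale in ONC/Ctrl (limma adjusted p = 1.56e-09) and fell by 0.62 in TPEN/ONC (SE 0.05, limma adjusted p = 1.56e-04), to 0.648 times the ONC mean. This change was just past 1.5-fold, and it was under that limit, at -0.57, both without TPEN replicate 3 and after centring on the Müller glia markers. In TPEN/Ctrl it was still higher by 2.33 (limma adjusted p = 1.17e-08). Gap43, a growth-cone gene, had one of the 3 patterns most like that of Gfap over the 9 libraries, with a Pearson r of 0.998 on the log2 scale, besides Gm28177 and Hk1, which had the same r. Among the 12143 genes compared, those averaging 1 RPKM or more, 90% had an r with Gfap under 0.782. The 9 points form 3 groups, so that r mainly follows the order of the groups, and no p is given.

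**Figure D2:**
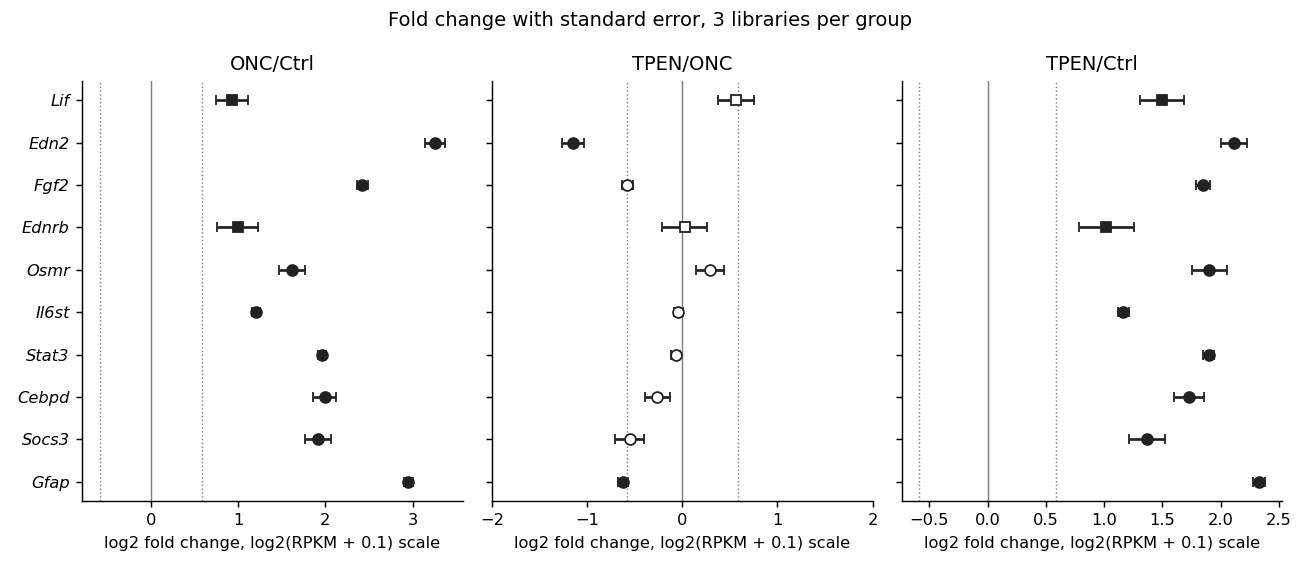
Log2 fold change on the log2(RPKM + 0.1) scale (x axis) of each gene (y axis) in ONC/Ctrl, TPEN/ONC and TPEN/Ctrl, with the standard error of the limma fit as whiskers, filled symbols for DEGs, squares for genes under 0.5 RPKM and dotted lines at 1.5-fold. All symbols are filled and to the right of 0 in ONC/Ctrl and TPEN/Ctrl, while Edn2 and Gfap are the filled symbols in TPEN/ONC.

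Set against Stat3 in the same library, the other members fell into different patterns. Edn2 was at 51.8% to 70.0% of the Stat3 level in Ctrl, at 141% to 167% in ONC and at 69.7% to 82.1% in TPEN. Fgf2 was at 69.3% to 74.1%, 98.0% to 100.3% and 65.6% to 72.1% of Stat3 in the same order. For both genes the TPEN ratios overlapped those of Ctrl, although the levels themselves stayed above Ctrl. Gfap was at 73.5% to 77.4% of Stat3 in Ctrl, 148% to 158% in ONC and 97.8% to 108% in TPEN, so that its ratio stayed above Ctrl. Socs3 was at 31.7% to 55.7% of Stat3 in Ctrl and at 42.5% to 45.4% in ONC, which overlapped, and at 29.3% to 33.2% in TPEN, below ONC. The receptor partners changed in their proportions too. Osmr was at 2.22% to 2.71% of Il6st in Ctrl, at 4.24% to 5.60% in ONC and at 6.06% to 6.41% in TPEN. The LIF receptor gene Lifr was at 139% to 147% of Il6st in Ctrl and at 59.8% to 62.6% in ONC. Lifr itself averaged 8.21 RPKM in Ctrl, 8.24 in ONC and 9.06 in TPEN, with a log2 difference of 0.00 ± 0.06 in ONC/Ctrl (limma adjusted p = 0.970). Lif was at 0.502% to 0.963% of Edn2 in ONC and at 2.34% to 3.28% in TPEN. Of 33 comparisons of such ratios, 25 did not overlap between groups. They share denominators and libraries, and the share among other pairs of genes was not computed. The count is therefore not read as a result about the axis. The 25 reached an exact two-sided permutation p of 0.1, the smallest that 3 against 3 libraries can give. Their Benjamini-Hochberg adjusted value was 0.132, so no ratio could pass a threshold of 0.05.

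**Figure D3:**
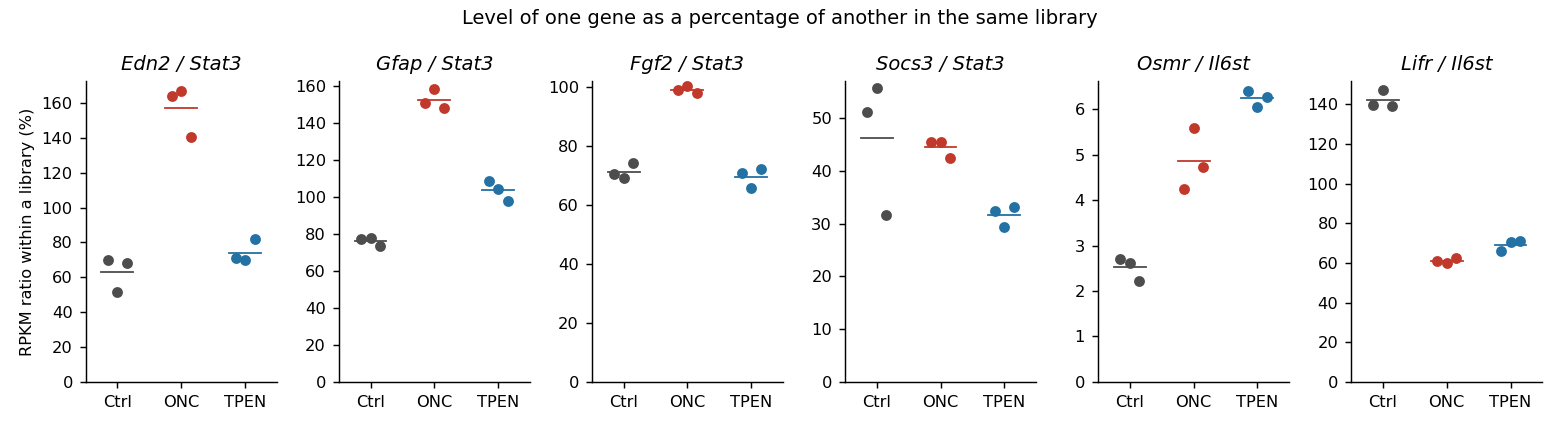
Level of one gene as a percentage of another in the same library (y axis, from 0) for Ctrl, ONC and TPEN (x axis), with points for libraries and a bar for the mean of 3. Edn2 and Fgf2 relative to Stat3 are high in ONC, at up to 167% and 100.3%, and near their Ctrl values in TPEN, while Osmr relative to Il6st is highest in TPEN.

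Other genes of the pathway were read from lists of 53 names, of which 39 were listed and 33 tested. In ONC/Ctrl 10 were DEGs with higher expression and 1 with lower, where 4.58% and 0.752% of all genes tested were. In TPEN/ONC 4 were lower and 0 higher, against backgrounds of 1.21% and 0.818%. In TPEN/Ctrl 7 were higher, against a background of 3.45%. Of the 33, 8 had a Ctrl mean under 0.5 RPKM, and without that limit 13 of 39 were higher in ONC/Ctrl, against 6.19% of all genes. Of 8 gp130 ligands, only Cntf, Ctf1 and Clcf1 were listed. Ctf1, the cardiotrophin 1 gene, fell by 0.88 on the log2 scale in ONC/Ctrl (SE 0.21, limma adjusted p = 0.0178). Cntf and Clcf1 were not called. Il6, Il11 and Osm were not among the listed genes and were not analysed here. The kinase genes Jak1 and Jak2 averaged 13.3 and 12.9 RPKM in Ctrl and 13.8 and 13.9 RPKM in ONC, with log2 differences of 0.06 and 0.11 (limma adjusted p = 0.337 and 0.235). Stat6, the mediator of interleukin 4 signals, averaged 0.256 RPKM in Ctrl and passed the limit only through the crush groups. It rose by 1.88 on the log2 scale in ONC/Ctrl (limma adjusted p = 9.05e-06) and fell by 0.78 in TPEN/ONC (limma adjusted p = 0.00780).

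Of 16 known STAT3 targets, 14 were listed and 12 tested, and 8 were DEGs with higher expression in ONC/Ctrl, where 4.58% of all genes tested were. Of the 12 tested, 5 had a Ctrl mean under 0.5 RPKM and passed the limit only through the other groups, so this count is favoured by the limit. In Ctrl, Bcl3 averaged 0.0548 RPKM (2 to 4 reads per library), Icam1 0.127 (10 to 14 reads) and Serpina3n 0.135 (4 to 8 reads). Cebpb averaged 0.260 RPKM (6 to 14 reads) and Pim1 0.449 (19 to 39 reads). The rises of these 5 genes given below rest on few Ctrl reads. In the fit without it, 10 of the 14 listed were called higher, against 6.19% of all genes. The 8 were Bcl3, Serpina3n, Icam1, Cebpb, Vim, Junb, Pim1 and Ccnd1. Serpina3n, a serpin of reactive glia, rose by 2.69 on the log2 scale (limma adjusted p = 2.47e-05) and did not differ by more than its error in TPEN/ONC, at -0.07 ± 0.22 (limma adjusted p = 0.898). Bcl3, an NF-κB cofactor, rose by 3.05 and fell by 1.57 in TPEN/ONC (limma adjusted p = 8.15e-04). Cebpb, the C/EBPβ gene, rose by 2.06 and fell by 1.24 (limma adjusted p = 0.0190), and the adhesion molecule gene Icam1 rose by 2.27 and fell by 0.81 (limma adjusted p = 0.0414). Vim, the filament partner of Gfap, averaged 19.0 RPKM in Ctrl, 57.1 in ONC and 44.0 in TPEN. Its log2 difference in TPEN/ONC was -0.38 (limma adjusted p = 0.00306), which is under 1.5-fold, and Gfap was at 14.2% to 15.1% of Vim in Ctrl and at 38.0% to 39.5% in ONC. The 2 C/EBP genes thus gave different values in TPEN/ONC, -1.24 for Cebpb and -0.27 for Cebpd, and this difference was not tested.

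Relatives of Socs3, Fgf2 and Edn2 were not called in ONC/Ctrl by limma. Of 4 tested negative regulators besides Socs3, none was a DEG in ONC/Ctrl by limma, with 3 higher and 1 lower at an unadjusted p under 0.05, and voom called 0. Ptpn11, a phosphatase gene, differed by 0.24 and Pias3, a STAT inhibitor, by -0.23 in ONC/Ctrl. Of 5 tested FGF ligand and receptor genes besides Fgf2, none was a DEG in ONC/Ctrl by limma, with 1 higher and 1 lower at an unadjusted p under 0.05, and voom called 1. Fgfr1, an FGF receptor gene, averaged 0.419 RPKM in Ctrl and 0.673 in ONC. The endothelin-converting enzyme gene Ece1 averaged 1.75, 1.58 and 2.24 RPKM in Ctrl, ONC and TPEN, with a log2 difference of 0.48 in TPEN/ONC (limma adjusted p = 0.0153) that was short of 1.5-fold. Edn1, Edn3 and Ednra were not among the listed genes and were not analysed here.

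Markers of microglia and macrophages moved with the axis. Of 12 microglia and macrophage markers, 11 were listed and 10 tested. All 10 were DEGs with higher expression in ONC/Ctrl and in TPEN/Ctrl, while 5 were lower in TPEN/ONC. The shares of all genes tested were 4.58%, 3.45% and 1.21% in the same order. Of the 10, 4 (P2ry12, Tmem119, Aif1 and Cd68) had a Ctrl mean under 0.5 RPKM and passed the limit only through the crush groups. Without the limit 11 of 11 were called higher in ONC/Ctrl, against 6.19% of all genes. Their summed level was 9.19 to 9.50 RPKM in Ctrl, 66.3 to 69.6 RPKM in ONC and 33.6 to 36.8 RPKM in TPEN. Ptprc, the pan-leukocyte gene, averaged 0.0764 RPKM in Ctrl and 0.794 in ONC. The mean log2 change of the 11 listed markers was 2.84 in ONC/Ctrl and -0.93 in TPEN/ONC. In ONC/Ctrl, Edn2 exceeded this mean by 0.42 and Gfap by 0.11, and the other 8 members were under it, with Lif at -1.91 and Il6st at -1.63 relative to it. In TPEN/ONC, Edn2 was at -0.22 relative to the mean, and the other 9 members were above it by 0.30 to 1.50. The order Ctrl, TPEN, ONC of the microglia and macrophage sum was also that of Edn2, Fgf2, Stat3, Cebpd, Socs3 and Gfap. The sort was set to exclude cells with a leukocyte antigen on their surface, but RNA of Ptprc and of the other listed markers was found in these libraries. The part of microglia and macrophages in the levels of the axis was not tested.

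The genes whose pattern was most like that of Edn2 and Socs3 over the 9 libraries were taken by the same rule as for Gfap. For Edn2 these were Tgm2, a transglutaminase gene (r = 0.998), Ice1 (r = 0.996) and Mpeg1, a macrophage gene (r = 0.996). For Socs3 they were Spp1, the osteopontin gene (r = 0.997), the microglial receptor gene Cx3cr1 (r = 0.990) and Ttll5 (r = 0.988). The r of 90% of genes was under 0.785 with Edn2 and under 0.779 with Socs3. Here too the 9 points form 3 groups. Mpeg1 averaged 0.247 RPKM in Ctrl, 4.73 in ONC and 1.62 in TPEN, and Spp1 0.115, 6.27 and 2.23 RPKM.

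Most Müller glia markers were not called. Of 12, all tested, 2 were DEGs with higher expression in ONC/Ctrl, Apoe and Clu, and 1 with lower expression in TPEN/ONC, Apoe. The shares of all genes tested were 4.58% and 1.21%. In TPEN/Ctrl Clu was higher by 0.67 (limma adjusted p = 1.35e-04) and Glul lower, at -0.75 (limma adjusted p = 2.02e-07). The summed level of the 12 markers was 591 to 604 RPKM in Ctrl, 628 to 639 RPKM in ONC and 511 to 522 RPKM in TPEN. Of this sum, Apoe alone averaged 172, 268 and 178 RPKM in the same order. At an adjusted p under 0.05 with no fold limit, limma gave 2 of the markers higher and 4 lower in ONC/Ctrl. The mean log2 change of the 12, which joins these opposite changes, was -0.02 in ONC/Ctrl and -0.05 in TPEN/ONC. Relative to that mean, Edn2 rose by 3.28, Gfap by 2.97 and Stat3 by 1.99 in ONC/Ctrl, and in TPEN/ONC Edn2 was at -1.10, Gfap at -0.57 and Stat3 at -0.02. Glul, the glutamine synthetase gene of Müller cells, was at 173 RPKM in Ctrl and 116 in ONC, a log2 difference of -0.57 (limma adjusted p = 9.66e-07) that was under 1.5-fold. Of 8 rod and 5 cone markers, all tested, 0 were called by limma or voom in ONC/Ctrl. At an unadjusted p under 0.05 the limma fit gave 1 rod marker higher and 6 lower, and 3 cone markers lower. The 5 cone markers were all called higher in TPEN/ONC and 4 of them in TPEN/Ctrl, against 0.818% and 3.45% of all genes tested. Their summed level was 102 to 107 RPKM in Ctrl, 88.5 to 96.3 RPKM in ONC and 156 to 158 RPKM in TPEN, with TPEN highest as for Lif and Osmr. No rod marker reached 1.5-fold in TPEN/ONC or TPEN/Ctrl, and the part of cones in the levels of the axis was not tested. Astrocytes, the other retinal cells that make Gfap, were covered by 3 of 5 markers, since Pax2 and Gja1 were not listed. Aldh1l1 was higher by 1.03 in ONC/Ctrl (limma adjusted p = 3.64e-04), and the summed level of the 3 was 3.26 to 3.88 RPKM in Ctrl, 6.05 to 6.44 RPKM in ONC and 4.48 to 5.73 RPKM in TPEN. The part of astrocytes in the level of Gfap was not tested.

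**Figure D4:**
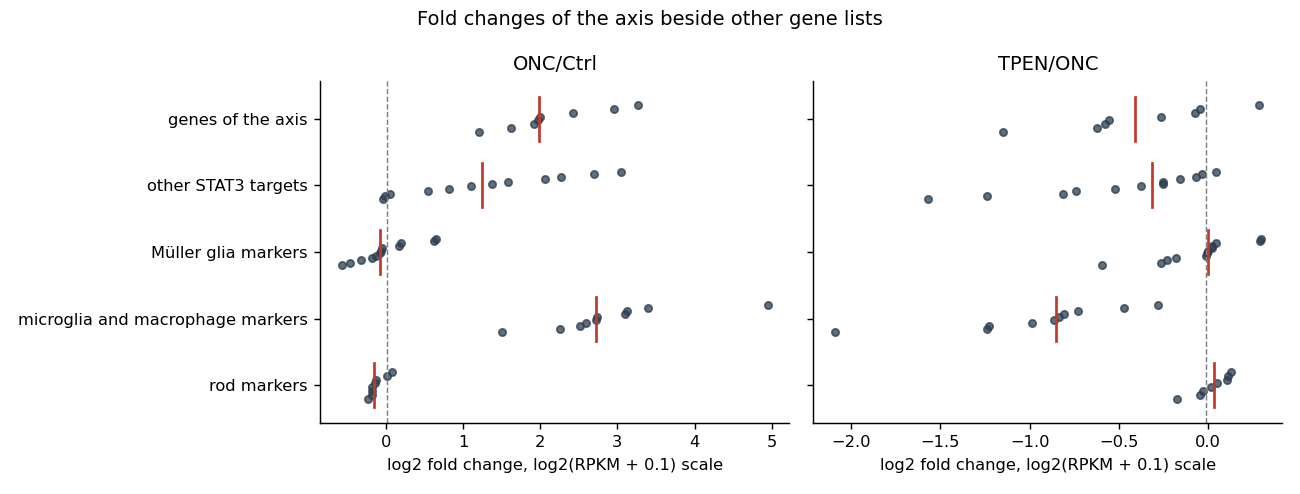
Log2 fold change on the log2(RPKM + 0.1) scale (x axis) of each tested gene of 5 lists (y axis) in ONC/Ctrl and TPEN/ONC, with a red bar at the median of the list and a dashed line at the median of all genes tested. The axis, with medians of 1.98 and -0.41, lies between the Müller glia markers (-0.07 and -0.00) and the microglia and macrophage markers (2.72 and -0.85) in both comparisons.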

How the data were processed

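RNA of sorted cells was sequenced in 9 stranded libraries. The authors trimmed reads (Trimmomatic 0.36, per the labels), mapped them to GRCm38/mm10 with STAR and deposited RPKM values, exon lengths and their own comparison columns. The latter (9 columns of log2 fold changes, p-values and FDR) hold the study's findings and were not used. The counting program, its use of strand and the collapsing of molecular identifiers are not given in the sources used here. The study used a count model. Since RPKM values are not counts, limma 3.58.1 in R 4.3.3 was used instead, with the study's thresholds, a trend of variance on mean and 1 coefficient per group. The pseudocount was 0.1 RPKM and the limit a mean of 0.5 RPKM. RPKM times length gave whole reads for all values within 0.01 reads, and voom on these reads with trimmed-mean scaling was an alternative. The pipeline was tested on simulated data. Replicate numbers did not pair the libraries: deviations from group means in same-numbered libraries correlated at -0.06 to 0.03. The members and lists were chosen with earlier results of these data known. The text names the 10 members, pathway genes that were called or are relatives of a member, the 3 genes most like Edn2, Socs3 and Gfap, and marker genes.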

Additional observations from a re-analysis of the deposited data

How the results depend on the processing

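Of the 30 member results, direction reversed in 2, both in TPEN/ONC and neither called. Ednrb, 0.02 as reported, was -0.0025 with a pseudocount of 1 RPKM, -0.2157 without ONC replicate 1 and -0.0845 without TPEN replicate 2, and without 1 library reached up to 0.26. Il6st was 0.0075 after centring on Müller glia markers. With treat, a limma test against 1.5-fold itself, no member was lower in TPEN/ONC (0 called, 1 at an unadjusted p under 0.05, adjusted p of Edn2 0.0936), and Lif and Ednrb lost their ONC/Ctrl calls. Quantile normalization also ended these calls, at 0.39 for Lif (adjusted p = 0.199) and 0.56 for Ednrb (adjusted p = 0.148). With a pseudocount of 1 RPKM, Lif (0.17) and Ednrb (0.23) were under 1.5-fold in ONC/Ctrl and in TPEN/Ctrl (0.32 and 0.22, adjusted p of Ednrb 0.0542). Ednrb lost its TPEN/Ctrl call with quantile normalization (0.63, adjusted p = 0.134) and treat too. Centring left 1 member, Edn2, lower in TPEN/ONC, without 1 library 2 to 3 were (Fgf2 joined without TPEN replicate 1 or 3, and Gfap left without TPEN replicate 3), and every tested member stayed called higher in ONC/Ctrl and TPEN/Ctrl except Osmr in ONC/Ctrl with a pseudocount of 1 RPKM (0.53, leaving 7), Lif and Ednrb being taken apart.

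Counts over all genes moved further, and the cause was not tested. Genes lower in ONC/Ctrl, 102 as reported, were 31 with a pseudocount of 1 RPKM, 193 with quantile normalization, 156 with voom on read numbers and 0 with treat (20 at an unadjusted p under 0.05). Genes higher in ONC/Ctrl, 622 as reported, were 297 with treat and 943 without a limit on low values. In TPEN/ONC, 39 genes were higher with the larger pseudocount, 7 were higher and 40 lower with treat, and 105 were lower at a mean of 1 RPKM or more against 281 with no limit. In TPEN/Ctrl, 247 were higher and 34 lower with the larger pseudocount, 148 and 11 with treat, while 102 were lower with quantile normalization and 94 with voom. With no fold limit, ONC/Ctrl gave 1590 higher and 946 lower, TPEN/ONC 440 and 562, TPEN/Ctrl 1134 and 680, and 3 members were then lower in TPEN/ONC. Of genes called in ONC/Ctrl 85.9% were higher, and 73.3% with quantile normalization. In TPEN/ONC 40.4% were, and 50.7% after centring. Without 1 library, ONC/Ctrl gave 581 to 618 higher and 90 to 116 lower, TPEN/ONC 83 to 117 and 110 to 175, and TPEN/Ctrl 431 to 459 and 57 to 73. Replicate numbers did not pair the libraries, and with the replicate block ONC/Ctrl gave 608 and 104, TPEN/ONC 97 and 146, TPEN/Ctrl 447 and 62, with no change in a call of a member. Depth limits Lif and Ednrb, with 3 to 8 reads in each Ctrl library.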
